A study of Mus musculus with 6 samples.

Results

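The genes described here are those that the deposited gene table assigns to the KEGG pathway named Lysosome. The rule took every row whose pathway field held that exact name, and it found 124 of the 15953 genes in the table. The pathway name does not depend on any measured value. By the role of their products the genes were split into 16 proteases, 15 glycosidases, 8 sulfatases with their activator, 13 hydrolases and helpers for lipids, nucleic acids and phosphate esters, 24 membrane proteins, 10 subunits of the proton pump, 30 genes of the targeting machinery and 8 other products.

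Gene expression was measured by RNA sequencing of mRNA-enriched liver RNA in 3 wild type and 3 Cgref1 KO (knockout) samples. All 6 samples are of the C57BL/6 strain, and the labels call the 3 of each group biological replicates. The sources used here do not give age, sex, diet, the site of the deletion or whether it was limited to a tissue. Cgref1, which encodes a calcium-binding protein, had 7, 7 and 19 counts in the wild type libraries and 7, 12 and 10 counts in the knockout libraries. A loss of the transcript was thus not seen, and since the group rests on the label alone the second group is called knockout-labelled. Library totals were 17627734 to 18366443 counts. The labels name hepatocytes as the cell type and liver as the tissue, and whether whole liver or isolated hepatocytes were sequenced was not settled here. The 15 hepatocyte markers summed to between 104011 and 136035 CPM per library. CPM are counts scaled to the library total after its adjustment by the trimmed mean of M values (TMM). The 14 markers of Kupffer cells, the resident liver macrophages, summed to 447 to 551 CPM, so Kupffer cell markers were present in each library, and none of the 14 is a Lysosome gene.

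Lysosomes are acidic, membrane-bound compartments in which proteins, glycans, lipids and nucleic acids delivered by endocytosis, phagocytosis and autophagy are broken down. Their soluble hydrolases are made in the endoplasmic reticulum, tagged with mannose phosphate in the Golgi and carried onward by receptors, adaptor complexes and clathrin. A vacuolar proton pump, the V-ATPase, keeps the lumen acidic, and heavily glycosylated membrane proteins line the limiting membrane. In liver, hepatocytes use lysosomes for autophagy, lipoprotein turnover and the breakdown of glycogen and lipid, and Kupffer cells hold large amounts of lysosomal enzymes. Many lysosomal genes carry a palindromic E-box element, known as the CLEAR element, that is bound by the transcription factor TFEB and its relatives.

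The Lysosome genes covered a wide range of levels. Levels of different genes are compared in TPM, which are scaled by both transcript length and library size. Of the 124 genes, 13 had a mean above 100 TPM over the 6 libraries, 64 lay between 10 and 100 TPM, 35 between 1 and 10 TPM and 12 below 1 TPM. The 5 genes with the highest levels, Lamp1, Lamp2, Ctsb, Ctsl and Ctsh, held 34.6% of the summed TPM of the pathway, and the first 10 held 53.1%. By class, the proteases held 29.0% and the membrane proteins 28.6%, whereas the glycosidases held 4.36% and the sulfatases 2.46%. Cathepsins and membrane proteins thus made up most of the lysosomal transcripts, and enzymes that degrade glycans a small share.

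**Figure D1:**
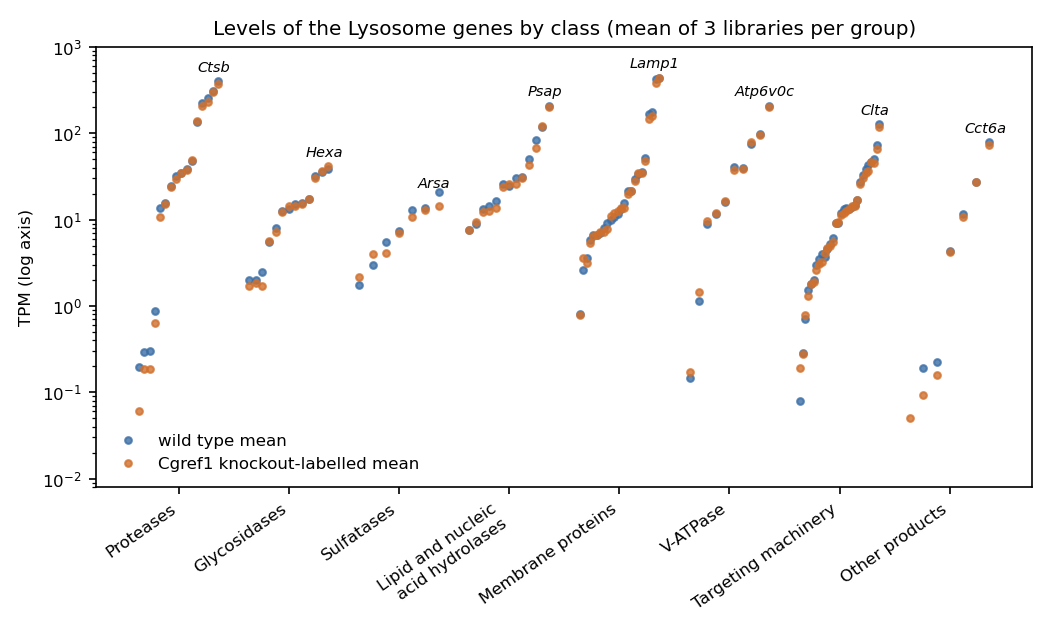
Mean TPM of 120 of the 124 Lysosome genes on a log axis, by class, with 1 point for the mean of the 3 wild type libraries and 1 for the mean of the 3 knockout-labelled libraries; the highest gene drawn in each class is named, and means of 0 cannot be drawn. The points of a gene lie close together in each class at levels above 10 TPM, apart from Arsa, the highest sulfatase drawn, whose knockout-labelled mean is lower.

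The promoters of these genes were searched for the E-box element, since its presence is a feature that the rule did not use. RefSeq promoter windows (GRCm38.p6, 250 bases before to 50 after a start) matched 95 of the 124 genes by gene ID. The letters CACGTG, which read the same on both strands, stood in 24 of these 95 genes (25.3%), against 11.8% of the 9656 tested genes with a promoter window. The longer palindrome TCACGTGA, which contains CACGTG, stood in 10 (10.5%), against 2.22% of those genes. By class TCACGTGA was found in 3 of 18 membrane protein genes, 2 of 11 proteases, 2 of 25 targeting genes and 0 of 12 lipid and nucleic acid hydrolases. A match is a description of the letters and not of binding. The 30-base windows around the copy nearest to a start are given for the 10 genes, because they show how the bases outside the shared core differ. Capitals mark TCACGTGA, and each window is printed 5′ to 3′ on the strand of its gene.
Ctsa, chr2:164833766-164833795, plus strand: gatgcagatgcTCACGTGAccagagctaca
Ctsd, chr7:142387908-142387937, minus strand: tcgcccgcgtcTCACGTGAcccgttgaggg
Gla, chrX:134601182-134601211, minus strand: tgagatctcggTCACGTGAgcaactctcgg
Sumf1, chr6:108185577-108185606, minus strand: agcaccacaggTCACGTGAtctccatgggt
Cd164, chr10:41519401-41519430, plus strand: cgccgggctgcTCACGTGAccggcgcgcgc
Cln3, chr7:126583340-126583369, minus strand: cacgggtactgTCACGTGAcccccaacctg
Mcoln1, chr8:3500462-3500491, plus strand: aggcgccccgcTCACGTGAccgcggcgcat
Gnptg, chr17:25240120-25240149, minus strand: ccggctgtcacTCACGTGAccgtgagaccc
Igf2r, chr17:12769696-12769725, minus strand: gccgactcaggTCACGTGAcgctccgggga
Atp6v0d1, chr8:105566050-105566079, minus strand: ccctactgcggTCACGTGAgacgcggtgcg

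The core lay close to the annotated start in Atp6v0d1, Igf2r, Sumf1 and Ctsa (0 to 8 bases, measured from the centre of the motif) and farther upstream in Mcoln1 (42 bases), Cd164 (84), Ctsd (95), Cln3 (118) and Gla (191). Gnptg has 2 annotated starts, and the same copy lies 18 bases before one and 6 bases after the other. The 10 genes with the palindrome had log2 fold changes, the log2 of the knockout-labelled level over the wild type level, of -0.11 to 0.20 with a median of 0.06, which was 0.04 without knockout-labelled replicate 1 and 0.10 without wild type replicate 2. No test was made of a difference between genes with and without the element.

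The comparison of the 2 groups asked which Lysosome genes the samples labelled Cgref1 KO expressed at another level than wild type samples. After removal of genes with low counts 115 of the 124 genes were tested, within a fit over 12033 genes. No Lysosome gene differed past the threshold of 0.05 on the adjusted p (0 of 115 in the quasi-likelihood test of edgeR, adjusted over all genes by Benjamini-Hochberg, against 0.00831% of all genes called, with a smallest adjusted p of 0.844). DESeq2 called 0 of them as well (smallest adjusted p 0.581, against 0.233% of all genes called), and limma-voom called 0 (smallest adjusted p 0.859, against 0.00831%). At an unadjusted p under 0.05 edgeR gave 4 genes with higher values (2.95% of all genes called) and 1 with lower values (2.20% of all genes). The 4 of 115 were near the background share and the 1 of 115 was below it.

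Under the scaling of the main fit, the size of change that these data leave room for was small for most members. The 95% confidence interval of the log2 fold change stayed within a 1.5-fold change in either direction for 99 of the 115 genes and within a 2-fold change for 110. The median half-width of the interval was 0.28 on the log2 scale, against 0.35 over all genes tested. The Lysosome genes with the widest intervals, Ctsk, Ap3m2 and Abcb9 (chosen after their values were seen), had mean levels of 0.782, 1.80 and 1.89 CPM.

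Small differences leaned one way relative to other genes. Libraries were scaled here by TMM, as for the CPM values. Under this scaling 81 of the 115 genes had positive log2 fold changes (70.4%, against 49.5% of all genes). Their median was 0.0838, against -0.0022 over all genes. With TPM values 34 of 115 were positive, against 22.5% of all genes, and the median was -0.0488 or -0.055, by pseudocount. The counts of positive values under TPM given below for classes and lists stand against the same 22.5%. With TPM the median of all genes itself shifted to -0.11 or -0.13, and the Lysosome median lay 0.06 or 0.07 above it, against 0.09 above it with TMM. Relative to the median of all genes the Lysosome genes lay higher under both scalings, and the sign of their own median depended on the scaling. With library totals as the scaling 58 of 115 were positive, against 30.6% of all genes. In CPM, all 3 knockout-labelled libraries lay above all 3 wild type libraries for 14 of the 115 genes (12.2%, against 6.19% of all genes) and below them for 3 (2.61%, against 4.63%). In TPM there were 2 above (1.74%, against 1.44% of all genes) and 15 under (13.0%, against 15.3%), both near the share of all genes. Overlap is stated in CPM, and so under TMM, wherever TPM is not named. The median was 0.04 without knockout-labelled replicate 1 and 0.05 without wild type replicate 1.

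**Figure D2:**
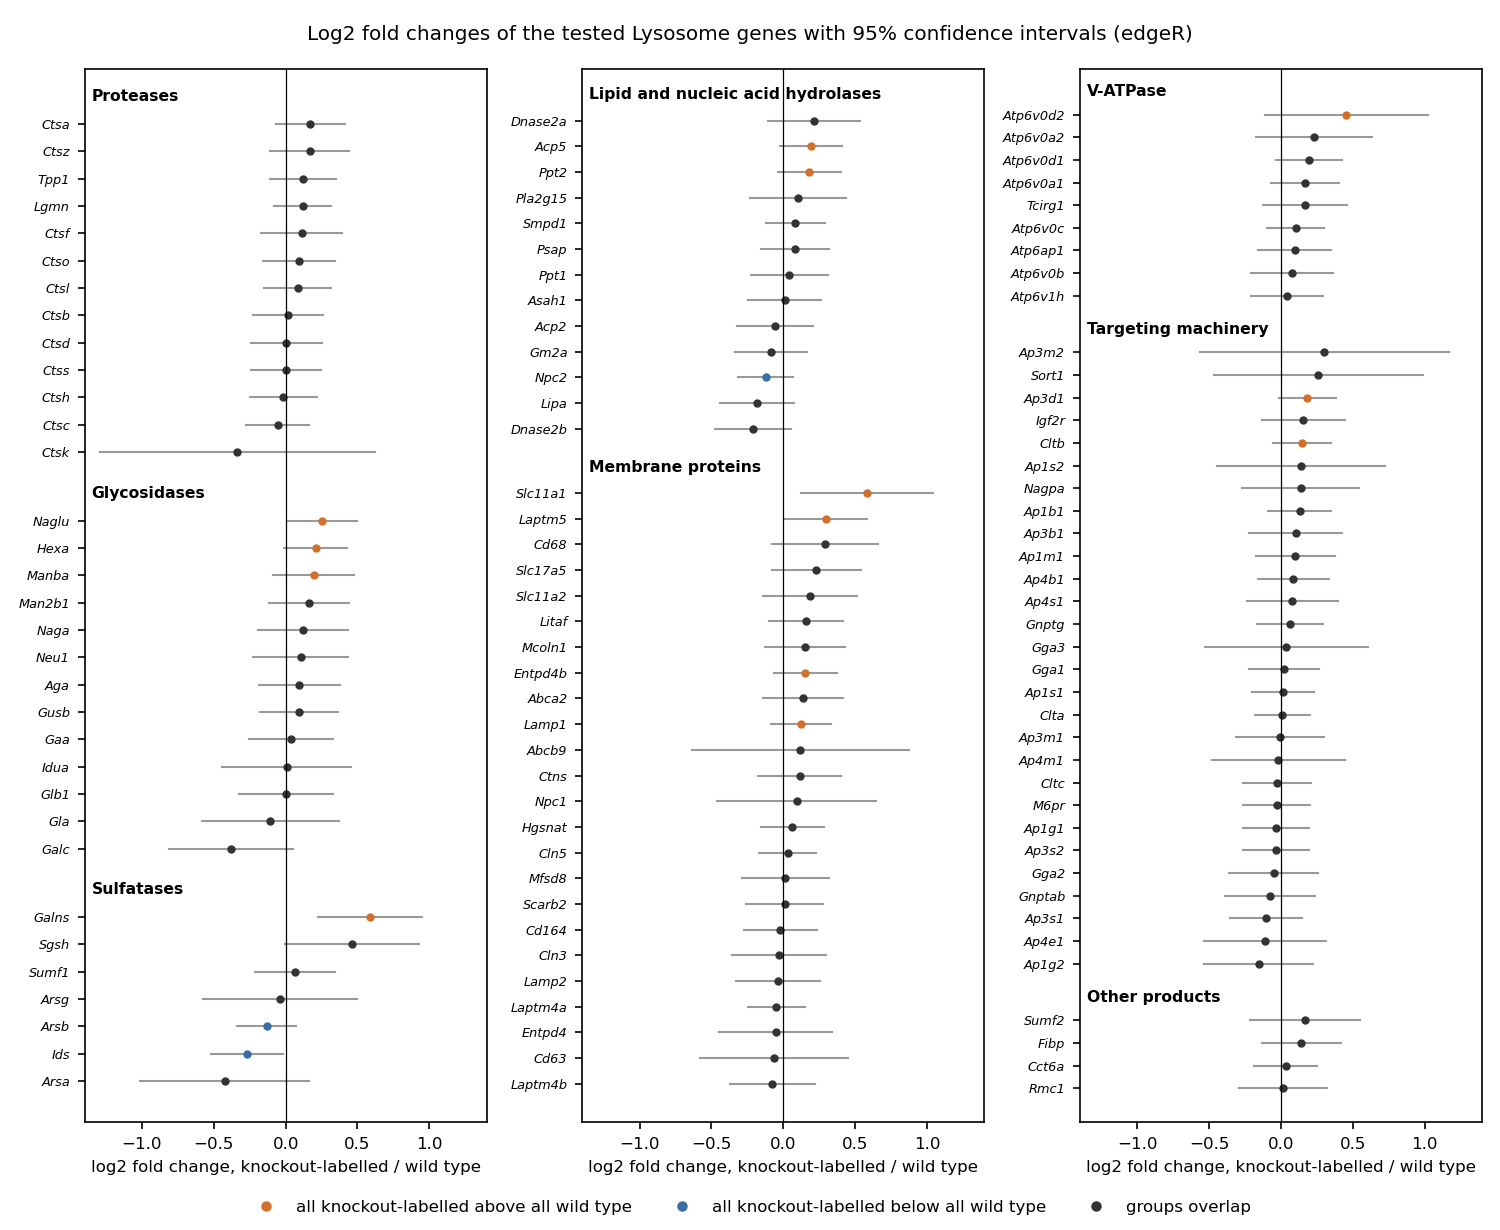
Log2 fold change (knockout-labelled over wild type, points) with its 95% confidence interval (lines) for 111 of the 115 tested Lysosome genes, by class; colour marks genes whose 2 groups of 3 libraries do not overlap in CPM. Most points lie between -0.2 and 0.3, and the intervals of Galns, Slc11a1, Naglu, Laptm5 and Ids are the ones that do not include 0.

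Proteases were the most abundant hydrolases. In CPM the groups of all 13 that were tested overlapped, where 6.19% of all genes were higher and 4.63% lower without overlap. In TPM the groups of 1 protease gene, Ctsc, did not overlap, with lower values in the knockout-labelled libraries. The share of all genes that were lower without overlap in TPM was 15.3%. Cathepsin B, a cysteine protease encoded by Ctsb, stood at 526, 567 and 493 CPM in the wild type libraries and 594, 506 and 506 CPM in the knockout-labelled libraries. The groups overlapped fully, and the 95% interval of its log2 difference ran from -0.22 to 0.26. The cysteine protease gene Ctsl had 351, 338 and 296 CPM in wild type and 372, 334 and 337 CPM in knockout-labelled libraries. Values of Ctsh, which encodes an aminopeptidase, were 277, 246 and 267 CPM and 286, 261 and 235 CPM in the same order. In both genes the groups overlapped. Their mean levels over the 6 libraries were 387 ± 35.8 TPM for Ctsb, 304 ± 24.6 TPM for Ctsl and 243 ± 24.3 TPM for Ctsh (SD, n = 6). Of the 16 protease genes 13 were tested, 10 with positive and 3 with negative log2 fold changes under TMM, but 2 with positive values under TPM. Ctsw, Napsa and Ctse, which encode proteases of lymphocytes, lung and stomach lining, were below 1 CPM in each library and were not tested.

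Among the glycosidases, which take sugars off glycoproteins, glycolipids and glycosaminoglycans, 12 of 15 log2 fold changes were positive under TMM but 5 of 15 under TPM. In CPM 4 of the 15 genes (26.7%, against 6.19% of all genes), Hexa, Naglu and Manba among them, did not overlap between the groups. Their values were higher in the knockout-labelled libraries. In TPM the groups of Hexa, Naglu and Manba overlapped. Hexa, the alpha subunit of beta-hexosaminidase that acts on GM2 ganglioside, had the highest level of the class at 40.2 ± 2.99 TPM. Its values were 45.7, 48.0 and 47.6 CPM in wild type and 57.5, 57.0 and 48.8 CPM in knockout-labelled libraries. The log2 fold change was 0.21 (SE 0.10; interval -0.01 to 0.42), and knockout-labelled replicate 3 lay just above the wild type range. In the table its coordinates overlap those of Tmem202 on the opposite strand, which had at most 0.218 CPM. Naglu, which encodes an enzyme of heparan sulfate breakdown, had 20.4, 24.0 and 21.0 CPM and 26.8, 25.0 and 26.2 CPM. Its log2 fold change was 0.25 (SE 0.11, edgeR adjusted p 0.944). Manba, a beta-mannosidase gene chosen for not overlapping, stood at 13.6, 13.8 and 13.3 CPM in wild type and 14.4, 17.7 and 14.5 CPM in knockout-labelled libraries.

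Other abundant glycosidase genes overlapped between the 2 groups. The acid alpha-mannosidase gene Man2b1 had 73.4, 93.8 and 81.0 CPM in wild type and 105, 82.4 and 89.8 CPM in knockout-labelled libraries. Gaa, the acid alpha-glucosidase that releases glucose from glycogen, had 68.8, 82.8 and 79.9 CPM and 92.9, 77.8 and 67.0 CPM. Both genes had their highest value in knockout-labelled replicate 1. Lower values in the knockout-labelled group were seen for Galc, the galactosylceramidase gene, at 5.80, 6.75 and 6.55 CPM and 4.78, 3.89 and 5.95 CPM, with a log2 fold change of -0.38 (SE 0.19), or -0.24 without knockout-labelled replicate 2. In CPM its groups overlapped, since knockout-labelled replicate 3 lay above wild type replicate 1. In TPM the groups of Galc did not overlap, at 2.17, 2.71 and 2.56 TPM and 1.71, 1.29 and 2.07 TPM. Lower values without overlap in TPM were seen for 15.3% of all genes.

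The sulfatases, which remove sulfate groups from glycosaminoglycans and sulfatides, held the highest and the lowest log2 fold change of the pathway with all 6 libraries, in Galns and Arsa. Without wild type replicate 2 or knockout-labelled replicate 1 or 3 the value of Slc11a1 was above that of Galns, and without wild type replicate 1 or knockout-labelled replicate 3 the value of Galc was below that of Arsa. Galns (chromosome 8, 122578237 to 122611503 in the table's coordinates, whose build it does not name), which encodes a galactosamine sulfatase for keratan and chondroitin sulfate, had the smallest p of all Lysosome genes. Its values were 4.47, 4.73 and 5.18 CPM in wild type and 6.82, 6.80 and 7.99 CPM in knockout-labelled libraries, with means of 4.79 ± 0.361 and 7.20 ± 0.679 CPM (SD, n = 3). Each knockout-labelled library lay above each wild type library. The log2 fold change was 0.59 (SE 0.16; interval 0.23 to 0.95), a 1.5-fold difference, and its edgeR adjusted p of 0.844 missed the threshold. In the authors' deposited table Galns also had the smallest q among the Lysosome genes, 0.743.

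Ids (chromosome X, 70343069 to 70385816), which encodes the iduronate sulfatase of heparan and dermatan sulfate breakdown, had the smallest p among genes with lower values. It stood at 17.6, 17.7 and 19.5 CPM in wild type and 14.3, 15.5 and 15.6 CPM in knockout-labelled libraries. The groups did not overlap, and the log2 fold change was -0.27 (SE 0.11, edgeR adjusted p 0.939). Arsb, whose product also acts on dermatan sulfate, had 36.9, 33.7 and 34.9 CPM and 33.0, 31.5 and 31.8 CPM. These groups did not overlap either, at a log2 fold change of -0.13 (SE 0.09). Sgsh, the heparan sulfamidase gene, had 0.46 (SE 0.21), with knockout-labelled replicate 3 at 8.87 CPM above all other libraries, which lay at 4.58 to 6.16 CPM, and without that library the log2 fold change was 0.26.

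Arsa, the arylsulfatase gene for sulfatide, was among the more variable Lysosome genes. Its values were 54.1, 53.0 and 42.1 CPM in wild type and 51.8, 33.5 and 26.1 CPM in knockout-labelled libraries. Knockout-labelled replicate 1 was among the wild type values while replicates 2 and 3 lay below them, and the log2 fold change of -0.42 had an SE of 0.25. It was -0.74 without knockout-labelled replicate 1 and -0.22 without replicate 3. Sumf1, which encodes the enzyme that activates all sulfatases, had 20.0, 24.3 and 24.5 CPM and 23.7, 26.6 and 21.9 CPM. Its groups overlapped. Over the 8 genes of the class the median log2 fold change was 0.01, with 4 positive and 4 negative values under TMM and 3 positive under TPM. That median turned negative without knockout-labelled replicate 1 or 2 or wild type replicate 2 or 3 (lowest -0.04) and was 0.09 without knockout-labelled replicate 3 and 0.04 without wild type replicate 1.

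**Figure D3:**
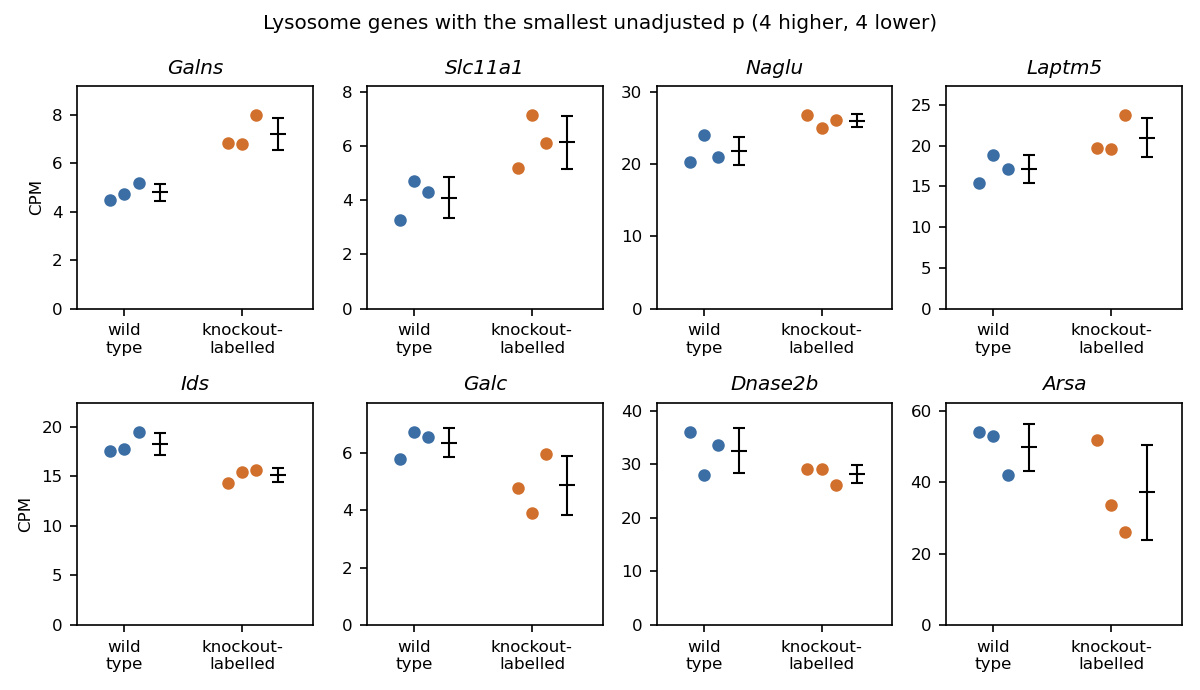
CPM in each library for the 4 Lysosome genes with the smallest unadjusted p in each direction (upper row higher, lower row lower in the knockout-labelled libraries); points are libraries, bars are the mean ± SD of 3, and axes start at 0. In CPM the groups do not overlap in Galns, Slc11a1, Naglu, Laptm5 and Ids, and they overlap in Galc, Dnase2b and Arsa. In TPM the groups of Galc and Dnase2b do not overlap.

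Hydrolases and helper proteins for lipids, nucleic acids and phosphate esters showed no common direction. Under TMM 8 of 13 log2 fold changes were positive, with a median of 0.04. Under TPM 3 of 13 were positive, where 22.5% of all genes were. With each library left out in turn the median ranged from -0.01 (without knockout-labelled replicate 1) to 0.08 (without wild type replicate 2). Psap, the precursor of the saposins that present sphingolipids to their hydrolases, was the most abundant at 203 ± 19.1 TPM. It stood at 346, 382 and 362 CPM in wild type and 428, 377 and 350.3 CPM in knockout-labelled libraries. Its groups overlapped. Lipa, the lysosomal acid lipase that hydrolyses cholesteryl esters and triglycerides, had 182, 161 and 159 CPM and 167, 147 and 128 CPM. The log2 fold change was -0.18 (SE 0.12; interval -0.44 to 0.08), and knockout-labelled replicate 1 lay inside the wild type range. Without that library the value was -0.28, and without knockout-labelled replicate 3 it was -0.09. In TPM the groups of Lipa did not overlap, at 89.3, 81.8 and 81.2 TPM and 79.7, 64.6 and 58.7 TPM. Npc2, a soluble protein that hands cholesterol to Npc1 in the membrane, had 69.7, 68.2 and 63.8 CPM and 63.4, 59.4 and 62.4 CPM. Its groups did not overlap, though the 2 nearest libraries differed by less than 1 CPM and the log2 fold change was -0.12 (SE 0.09).

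Acp5, which encodes tartrate-resistant acid phosphatase, an enzyme of macrophages and osteoclasts, stood at 93.6, 113 and 103 CPM in wild type and 115, 117 and 122 CPM in knockout-labelled libraries. The groups did not overlap, with a log2 fold change of 0.19 (SE 0.10; interval -0.02 to 0.41), or 0.12 without wild type replicate 1. Ppt2, a lysosomal thioesterase gene, had 0.18 (SE 0.10) from 28.3, 26.6 and 27.7 CPM and 32.5, 32.0 and 29.2 CPM, also without overlap. In TPM the groups of Acp5 and those of Ppt2 overlapped. Dnase2b, an acid DNase gene, had -0.21 (SE 0.12), or -0.14 without wild type replicate 1. Its groups overlapped in CPM because wild type replicate 2, at 28.0 CPM, lay below 2 of the knockout-labelled libraries. In TPM the groups of Dnase2b did not overlap, at 17.67, 14.74 and 17.54 TPM and 14.45, 13.50 and 12.87 TPM. The table interval of Dnase2b overlaps that of Uox, a gene expressed in hepatocytes.

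The membrane proteins included the 2 most abundant transcripts of the pathway. Of their 24 log2 fold changes 17 were positive under TMM and 9 under TPM. Lamp1, a major glycoprotein of the limiting membrane, had 656, 644 and 618 CPM in wild type and 726, 683 and 685 CPM in knockout-labelled libraries. In these TMM-scaled values every knockout-labelled library lay above the wild type range. The 95% interval of the log2 difference, -0.08 to 0.33, included 0. Its relative Lamp2, which also takes part in chaperone-mediated autophagy, had 801, 604 and 639.6 CPM and 715, 679.8 and 597 CPM. Wild type replicate 1 had the highest Lamp2 value of all libraries, and the interval was -0.33 to 0.26. Cd164, the sialomucin endolyn, followed with 383, 314 and 301 CPM and 331, 343 and 311 CPM, again overlapping. Mean levels of these 3 genes were 436 ± 21.0, 409 ± 51.0 and 167 ± 16.7 TPM (SD, n = 6). In TPM the libraries of Lamp1 and Lamp2 overlapped in level.

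The membrane protein genes with the smallest p are known from macrophages. Slc11a1 (chromosome 1, 74375014 to 74386057), which encodes a metal transporter of the phagolysosome, had 3.26, 4.73 and 4.31 CPM in wild type and 5.19, 7.15 and 6.11 CPM in knockout-labelled libraries. The groups did not overlap, with means of 4.10 ± 0.759 and 6.15 ± 0.980 CPM (SD, n = 3) and a log2 fold change of 0.58 (SE 0.21; interval 0.12 to 1.04; edgeR adjusted p 0.903). Laptm5, a lysosomal membrane protein of blood-derived cells, had 15.3, 18.8 and 17.1 CPM and 19.6, 19.5 and 23.7 CPM. Again the groups did not overlap, with a log2 fold change of 0.29 (SE 0.13, edgeR adjusted p 0.958), or 0.20 without knockout-labelled replicate 3. In TPM the groups of Laptm5 overlapped, whereas those of Slc11a1 did not. Cd68, a macrophage marker chosen here after its values were seen, had 7.06, 9.09 and 6.66 CPM and 9.91, 9.59 and 8.37 CPM, with knockout-labelled replicate 3 inside the wild type range. Ctss, a cathepsin of antigen-presenting cells chosen in the same way, had 27.7, 24.9 and 26.1 CPM and 23.6, 27.4 and 27.8 CPM and overlapped fully.

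These values stood beside a shift in the Kupffer cell markers. Of the 14 markers, 13 had positive log2 fold changes, with medians of 0.32 under TMM and 0.15 or 0.16 under TPM. Their summed level was 447, 483 and 459 CPM in wild type and 517, 551 and 499 CPM in knockout-labelled libraries. Kupffer marker sums did not overlap in CPM but did so in TPM (381, 431 and 429 and 445, 442 and 425 TPM). None of the 14 markers was at 0. By edgeR 0 of them passed the adjusted threshold, and 8 had higher values at an unadjusted p under 0.05 (57.1%, against 2.95% of all genes); DESeq2 and limma-voom called 0. Markers of stellate cells went the other way, with 10 of 12 log2 fold changes negative and a median of -0.27 under TMM. Under TPM 11 of 12 were negative. Their sums overlapped in CPM, at 398 to 524 in wild type and 345 to 403 in knockout-labelled libraries. In TPM the sums did not overlap, at 265 to 366 and 218 to 250. The stellate median under TMM was -0.11 without wild type replicate 3. It was -0.06 without wild type replicates 1 and 3, where 6 of 12 values were negative. Markers of monocytes and neutrophils summed to 3.98 to 4.73 CPM in wild type and 3.31 to 4.43 CPM in knockout-labelled libraries, and those of lymphocytes to 4.80 to 7.33 and 5.01 to 6.88 CPM. Under TMM the median was 0.03 for hepatocyte markers (8 of 15 positive) and 0.05 for sinusoidal endothelial markers (6 of 10). Markers of intestine (4 of 5 positive) and exocrine pancreas (2 of 2) had medians of 0.44 and 0.49, above that of the Kupffer markers. Their summed levels overlapped between the groups. Without wild type replicate 2 the intestinal median was -0.72. The remaining lists, with 3 or 4 tested markers each, had medians of -0.11 to 0.08. The part of the Kupffer and stellate markers' shifts in the values of Slc11a1, Laptm5, Acp5 and the other Lysosome genes was not tested. In bulk RNA, from whole liver or from isolated cells, a change in the number of cells of a type and a change in RNA per cell cannot be told apart.

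The V-ATPase subunits in the pathway had positive log2 fold changes in 9 of 9 tested genes, with a median of 0.17, but 7 of 9 were positive without wild type replicate 1 or with library totals as the scaling, 8 of 9 with FPKM values or without wild type replicate 2 or 3, and 5 of 9 with TPM values. Without wild type replicate 1 the median was 0.08. None passed the threshold (0 of 9 by edgeR and 0 by DESeq2 and limma-voom, with 0 at an unadjusted p under 0.05 in edgeR). Atp6v0c, a proteolipid of the membrane ring through which protons pass, was the most abundant at 207 ± 10.3 TPM, with 137, 153 and 148 CPM in wild type and 151, 157 and 162 CPM in knockout-labelled libraries. Atp6v0b, a further ring subunit, had 47.5, 59.0 and 67.9 CPM and 64.8, 60.3 and 59.0 CPM. Atp6v0d1, which couples the membrane ring to the stalk, had 68.9, 85.2 and 79.2 CPM and 85.0, 89.6 and 92.8 CPM, a log2 fold change of 0.20 (SE 0.10), or 0.11 without wild type replicate 1. In each of the 3 genes wild type replicate 1 had the lowest value of all 6 libraries and the groups overlapped. Atp6v0d2, an isoform of the d subunit known from osteoclasts and macrophages, was the only 1 of the 9 tested subunits without overlap in CPM. This was 11.1% of the subunits, against 6.19% of all genes with higher values and no overlap. Values of Atp6v0d2 were 2.21, 2.02 and 1.47 CPM and 2.68, 2.21 and 2.92 CPM, where the nearest libraries were equal to 3 digits. Atp6v0a4, a kidney isoform, was below 1 CPM in each library and was not tested.

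Summed over the 10 subunits the level was 455, 510.2 and 516 CPM in wild type and 538, 541 and 538 CPM in knockout-labelled libraries. These sums did not overlap, and the knockout-labelled libraries lay within 4 CPM of each other. On the TPM scale the sums were 451, 523 and 533 and 512, 476 and 495 TPM, and they overlapped. The table holds 12 further V-ATPase subunits without the Lysosome name, most of them of the peripheral sector that hydrolyses ATP. Of the 11 that were tested 7 were positive and 4 negative under TMM, with a median of 0.06, and 3 were positive under TPM. Their median ranged from 0.01 (without knockout-labelled replicate 2) to 0.10 (without wild type replicate 3). The subunits outside the pathway thus had both signs under either scaling.

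**Figure D4:**
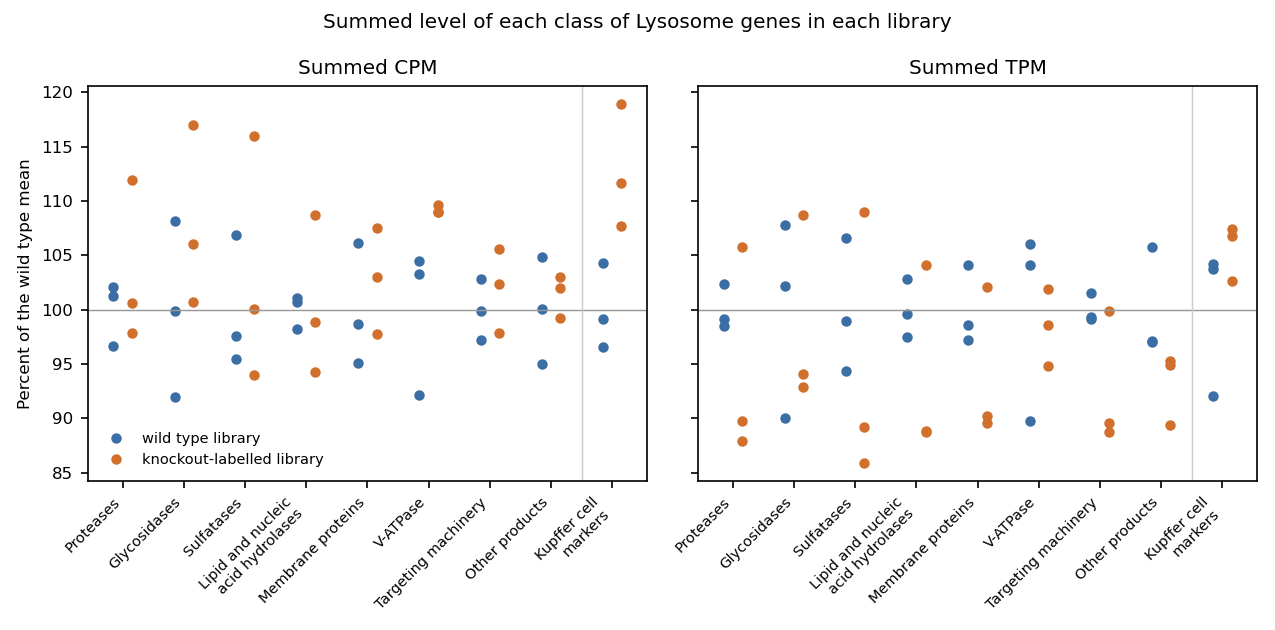
Summed level of each class of Lysosome genes and of the Kupffer cell markers in each library, as a percentage of the wild type mean, in CPM (left) and TPM (right); points are libraries, and the vertical axis does not start at 0. The V-ATPase and Kupffer sums do not overlap in CPM and overlap in TPM, where the sums of the other products, at 148 to 161 TPM in wild type and 136 to 145 TPM in knockout-labelled libraries, do not.

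The targeting machinery, which delivers new hydrolases and membrane proteins, had a median log2 fold change of 0.03, with 17 of 28 values positive under TMM and 6 of 28 under TPM. It ranged from 0.01 (without wild type replicate 3) to 0.06 (without knockout-labelled replicate 3). Clta, a clathrin light chain gene and the most abundant of the class at 123 ± 8.65 TPM, had 83.2, 85.0 and 81.9 CPM in wild type and 88.3, 84.4 and 79.3 CPM in knockout-labelled libraries. The interval of its log2 difference was -0.18 to 0.20, the narrowest of the Lysosome genes. M6pr, the cation-dependent mannose phosphate receptor gene, had 119.7, 108 and 96.6 CPM and 113, 104 and 101 CPM. Ap3m1, the medium subunit of the AP-3 adaptor, had 102, 100.4 and 142 CPM and 109, 121 and 114 CPM, with wild type replicate 3 above all other libraries. All 3 overlapped between the groups. Other AP-3 subunits did not share a sign under TMM. Ap3d1, the large delta subunit, had 46.3, 44.8 and 44.8 CPM and 54.6, 50.0 and 50.0 CPM without overlap and a log2 fold change of 0.19 (SE 0.09). Ap3s1, a small subunit, had -0.10 (SE 0.11), and its groups overlapped; without knockout-labelled replicate 3 the value was -0.01. Ap1g2, a gamma subunit of AP-1, had -0.15 (SE 0.17), also with overlap, and -0.0029 without wild type replicate 2. Cltb, the second clathrin light chain gene and chosen for not overlapping, had 42.1, 41.0 and 42.4 CPM and 47.5, 48.4 and 43.1 CPM. Ap1s3 and Ap1m2, subunits of AP-1, were below 1 CPM in each library and were not tested.

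Some Lysosome genes varied widely within the groups. Among genes with a mean above 10 CPM, Sort1, Arsa and Npc1 had the largest biological coefficients of variation, 26.3%, 21.8% and 21.0%, against a median of 12.6% over the Lysosome genes. Sort1, the sorting receptor sortilin, had 20.7, 21.7 and 10.1 CPM in wild type and 26.4, 19.1 and 17.5 CPM in knockout-labelled libraries. Npc1, the membrane cholesterol transporter, had 129.9, 156 and 89.6 CPM and 167, 125 and 109 CPM. In both genes wild type replicate 3 was the lowest and knockout-labelled replicate 1 the highest of the 6 libraries. Knockout-labelled replicate 1 also held the highest CPM for 39 of the 115 Lysosome genes (33.9%, against 16.3% of all genes tested). Wild type replicate 1 held the lowest for 38 (33.0%, against 24.1%).

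The pathway name also covered 8 genes whose products fell in none of the classes. In the table's coordinates Fibp overlapped Ctsw, Rmc1 overlapped Npc1, Gm16867 overlapped Entpd4, Tmem202 overlapped Hexa, and 6430590A07Rik lay 21.1 kb from Mfsd8. Sumf2 is a paralogue of Sumf1, and Cct6a, a subunit of a cytosolic chaperonin, overlapped Sumf2. Tmem202, Gm16867 and 6430590A07Rik were below 1 CPM in each library and were not tested. Of the 5 tested genes 4 had positive log2 fold changes under TMM and 1 under TPM, and the median under TMM was 0.03 (0.02 without knockout-labelled replicate 3 to 0.10 without wild type replicate 2). Without these 8 genes, 77 of 110 tested genes were positive with a median of 0.08 and 0 passed by edgeR, close to the values with them. Whether reads were counted by strand is not stated, and 44 of the 124 genes overlap another gene of less than 3 Mb in the table. Reads of such pairs cannot be told apart where they share sequence, and this also holds for the near-identical copies Entpd4 and Entpd4b.

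Genes that control lysosomes were read from lists beside the pathway. Of 26 genes of TFEB, its relatives and the mTORC1 machinery that senses amino acids on the lysosome, 25 were tested, 11 with positive and 14 with negative values under TMM and a median of -0.03, and 2 with positive values under TPM. By edgeR 0 passed, with 0 higher and 1 lower at an unadjusted p under 0.05, where 2.95% of all genes were higher and 2.20% lower. Of 31 autophagy genes all 31 were tested, 22 with positive values under TMM and a median of 0.03, but 7 with positive values under TPM. By edgeR 0 passed, with 1 higher and 0 lower at an unadjusted p under 0.05, near the same background. The autophagy median ranged from 0.02 (without knockout-labelled replicate 1) to 0.09 (without knockout-labelled replicate 3). DESeq2 and limma-voom called 0 genes in both lists. The median of the regulators ranged from -0.06 (without wild type replicate 3) to 0.03 (without wild type replicate 2), and it was also positive without knockout-labelled replicate 3.

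**Figure D5:**
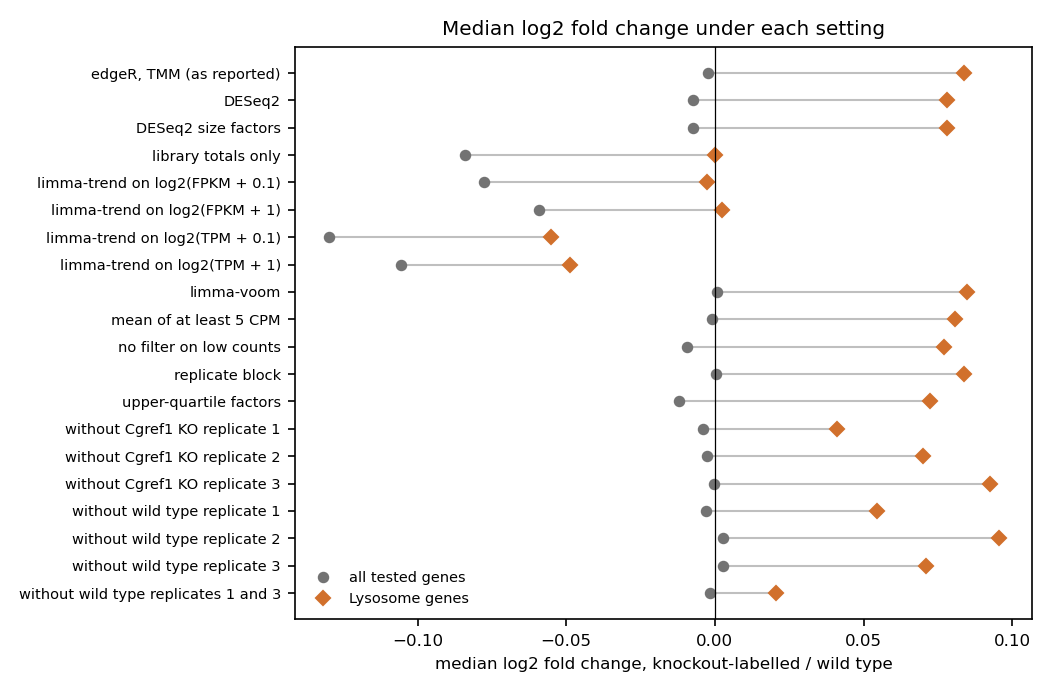
Median log2 fold change (knockout-labelled over wild type) of the Lysosome genes (diamonds) and of all genes fitted (circles) under the reported analysis and each alternative. The Lysosome median lies to the right of the median of all genes in each setting, by 0.02 to 0.09, while its own sign turns negative with TPM values and with FPKM values at a pseudocount of 0.1.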

How the data were processed

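mRNA-enriched RNA of 6 mouse liver samples was sequenced, 3 wild type and 3 Cgref1 KO. HISAT, Bowtie2, RSEM and DESeq2 are named in the submitters' processing notes, without versions or settings; no build is named. All 124 Lysosome genes matched RefSeq (GRCm38.p6) by gene ID, 65 with an equal start. The authors deposited, per the file headers, expected counts, TPM values and FPKM values per gene and library, none of them pooled; 92.3% to 92.9% of a library's expected counts were whole numbers. The authors' deposited table also gives log2 fold changes with p-values and q-values between the groups, used only where named; its 6 columns of group means and 9 columns of single-library comparisons, including a score from a Poisson method per the file headers, were not used.

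Expected counts were rounded. Genes were kept by filterByExpr with a minimum count of 10 (12033 genes), and libraries were scaled by TMM. The factors were 0.997 to 1.05 in wild type and 0.955 to 0.989 in knockout-labelled libraries. Genes were tested with edgeR 4.0.16 (robust quasi-likelihood, group as the only term) in R 4.3.3. Adjustment was by Benjamini-Hochberg over all genes, with a threshold of 0.05. CPM values use TMM-scaled totals. Intervals are 95% and are for the difference between the groups, with an SE that rests on the variation between these samples. They do not cover the choice of scaling. Depth was 17627734 to 18366443 counts per library. The fit was tested on simulated data. Alternatives were other scalings and filters, DESeq2 1.42.0, limma 3.58.1 on counts, TPM or FPKM, a replicate block and the removal of libraries.

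The members, lists and tests were chosen with earlier results of these data known. The text gives levels for the 3 genes of each class with the highest mean TPM and fold changes for 10 genes per direction, those of smallest unadjusted p; other genes are examples chosen after their values were seen. The values of 4 Lysosome genes are not reported here; they remain in the fits, counts and sums.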

Additional observations from a re-analysis of the deposited data

How the results depend on the processing

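In all 19 alternatives the number of Lysosome genes past the threshold was 0, and the 20 Lysosome genes of smallest p, 10 per direction, kept their sign and did not pass in any of their 380 values, although with 1 library left out some moved by over 1.5 times, down to -0.0029 for Ap1g2 and -0.0104 for Ap3s1. The smallest adjusted p of a Lysosome gene in any alternative was 0.226, with the replicate block. The count of called genes over the whole table was 1; it was 28 with DESeq2, 34 with the replicate block, 0 at a mean of at least 5 CPM, 0 without wild type replicates 1 and 3, and 1 to 5 with each library left out in turn. The median log2 fold change of the Lysosome genes was 0.0002 with library totals, -0.0027 and 0.0024 with FPKM values at pseudocounts of 0.1 and 1, -0.055 and -0.0488 with TPM values at the same pseudocounts, 0.0207 without wild type replicates 1 and 3, which leaves 1 wild type library assumed to vary like the others, and 0.0412 to 0.0954 with each library left out in turn. In CPM the Lysosome genes whose groups did not overlap were 14 higher (12.2%, against 6.19% of all genes) and 3 lower (2.61%, against 4.63%). In TPM, an alternative chosen after seeing the data, they were 2 higher (1.74%, against 1.44%) and 15 lower (13.0%, against 15.3%). The smallest median with 1 library left out was without knockout-labelled replicate 1. The cause was not tested. With TPM, FPKM and library totals the median of all genes shifted as well.

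The titles give both groups the replicate numbers 1 to 3. Deviations of same-numbered libraries from their group means correlated at 0.342, 0.073 and 0.409, and each library correlated best with its own number. The authors' single-library comparisons also set same-numbered libraries against each other. The titles do not say that the numbers pair the samples, so whether they do is not settled. The main fit did not use them as pairs, and the replicate block did. With the replicate block 8 Lysosome genes had an unadjusted p under 0.05, 6 higher and 2 lower (6.96%, against 8.63% of all genes in that fit), and 0 passed. Counts limit the genes below about 2 CPM, whose intervals are the widest.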
